A study of Mus musculus with 2 samples.

Results

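The BCL2 family decides whether a cell's mitochondria release the proteins that start apoptosis, and 10 of its genes were examined in sorted blood-forming cells of Nrf2 knockout and wild-type mice. The genes were 3 survival genes (Bcl2, Bcl2l1 and Mcl1), 2 genes of the pore-forming effectors (Bax and Bak1) and 5 genes of BH3-only proteins (Bad, Bid, Bcl2l11, Pmaip1 and Bbc3). Probe sets were taken where the platform annotation gave exactly 1 gene symbol, and that symbol was one of the 10. This rule found 9 of the 10 genes, of 19938 genes named in the same way, and each of the 9 had 1 probe set. Bax had no such probe set in the annotation used and was not analysed here, so Bak1 alone stood for the effectors.

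The cells were bone marrow KSL cells, a sort gate (c-Kit and Sca-1 present, mature lineage markers absent) that enriches for haematopoietic stem cells and multipotent progenitors. One group was Nrf2 KO and the other wild type, both on the C57BL/6J background, healthy, housed germ-free, with no treatment named in the labels, and 8 to 10 weeks old. Marrow of 5 mice was pooled for each genotype, and each pool went on 1 Affymetrix Mouse Gene ST 1.0 array, so the 2 arrays stand for 10 mice. The deleted part of the gene is not named in the labels, and the study's title names haematopoietic stem cell survival as its question. With 1 array per genotype there was no replicate and no test was possible, so every difference below describes these 2 pools.

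In healthy cells the survival proteins hold the effectors BAX and BAK inactive. The BH3-only proteins answer to stress, loss of growth factors or death receptors: they occupy the groove of the survival proteins, and some of them also switch the effectors on directly. Active effectors then open pores in the outer mitochondrial membrane and let cytochrome c out. Haematopoietic stem cells are known to depend on MCL1 for their survival, while BCL-XL, the long product of Bcl2l1, is known for its part in red cell and platelet survival.

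The deposited values are log2 intensities, and a difference is knockout minus wild type on that scale. A level filter was set at the median over genes of the mean of both arrays, 6.57, and 9970 genes passed it. Over these genes the median difference was -0.02 and the SD was 0.33, with the middle 95% between -0.73 and 0.57. The error that probe sets add to 1 difference, estimated from 515 genes with exactly 2 probe sets, had an SD of 0.31, or 0.17 by a robust estimate. The targeted gene Nfe2l2 stood at 9.07 in the KO pool against 9.16 in the wild-type pool, a log2 difference of -0.09, so its probe set did not separate the genotypes. Of the gate and stem cell markers, Kit stood at 11.21 in the KO pool against 10.93 in the wild-type pool, and Cd34 stood at 11.43 and 11.29 in the same order. Over the 11 KSL and stem cell markers past the filter, 6 were higher in the KO pool and 5 lower, with a median of 0.10. The Sca-1 gene had no value here.

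The 9 measured genes did not differ in 1 direction. Bcl2, Mcl1 and Bak1 differed by no more than 0.06 between the pools, Bcl2l1, Pmaip1 and Bid were lower in the knockout pool, and Bad and Bcl2l11 were higher in it. Of the 9 measured genes 8 passed the level filter, with 4 above 0 and 4 below, and Bbc3 did not pass. None of the 8 was at least 1.5-fold apart, whereas 6.64% of all genes past the filter were (4.30% lower and 2.34% higher), and with 8 genes a count of 0 cannot be told from that background. The median difference of the 8 was 0.02 and their mean was -0.07, against a median of -0.02 over all 9970 genes.

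**Figure D1:**
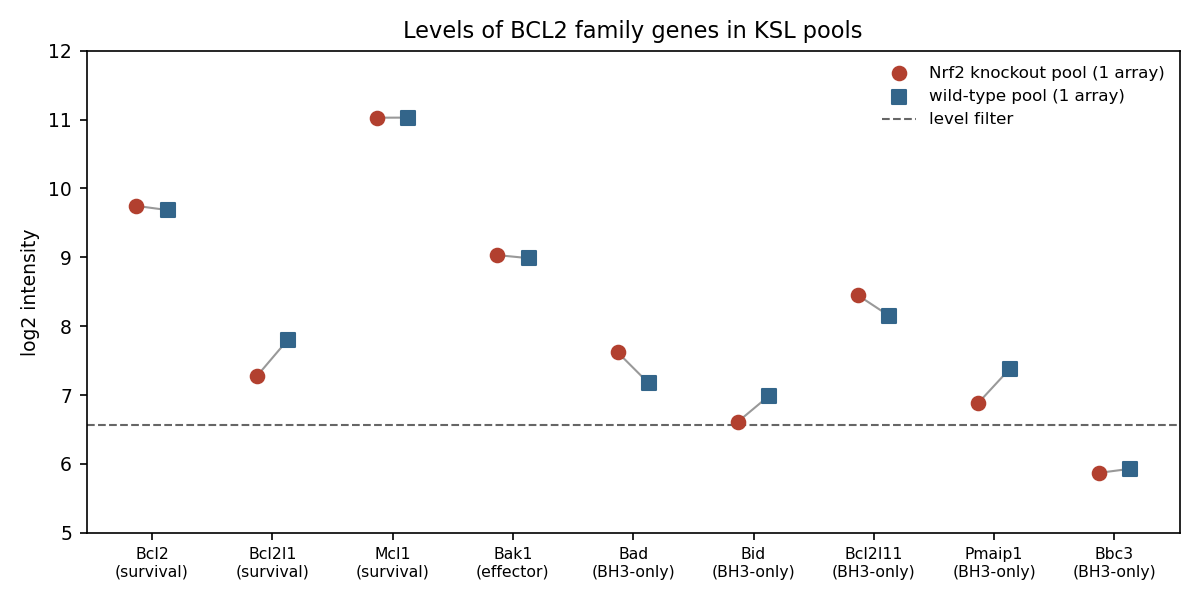
Log2 intensity (vertical axis) of the 9 measured BCL2 family genes in the Nrf2 knockout pool (circles) and the wild-type pool (squares), 1 array each, with the level filter of 6.57 as a dashed line. Bcl2, Mcl1 and Bak1 were at nearly the same level in both pools, and Bbc3 lay below the filter in both.

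Among the survival genes, 2 were close to equal in both pools and 1 was lower in the KO pool. Bcl2, which encodes the founding survival protein of the family, stood at 9.75 in the KO pool against 9.69 in the wild-type pool, a log2 difference of 0.06. Mcl1, which encodes the short-lived survival protein, stood at 11.03 in both, a difference of -0.00, whose sign turned under median centring, quantile normalization and loess. Both values were small beside the spread of genes of similar level: the 500 genes nearest in level had an SD of 0.25 around Bcl2 and 0.20 around Mcl1.

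Bcl2l1 had the lowest difference of the 9 genes. Its level was 7.27 in the KO pool against 7.81 in the wild-type pool, a log2 difference of -0.54, equal to 69.0% of the wild-type level. This was 1.55 times the SD of genes of similar level, 0.35, and 5.38% of all genes past the filter were as low or lower. The annotation lists several transcripts of the gene for this probe set, which gives 1 value for them together.

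Most markers of mature myeloid cells were lower in the same array. Of 14 neutrophil markers measured, 12 were lower in the knockout pool, and their mean level was 7.75 in the KO pool against 8.93 in the wild-type pool. Of 10 monocyte and macrophage markers measured, 9 were lower, with mean levels of 7.15 and 7.70 in the same order. The higher one was Cd68, at 9.31 in the KO pool against 8.68 in the wild-type pool. The neutrophil marker Csf3r was also higher, at 9.06 in the KO pool against 8.94 in the wild-type pool, above the level filter in both. So was the neutrophil surface gene Ly6g, at 5.41 in the KO pool against 4.90 in the wild-type pool, below the filter in both. The lowest value of any probe set on the knockout array was 2.41. Of 5 erythroid markers 2 were lower and 3 higher, with a median difference of 0.03 and mean levels of 7.58 and 7.70. The red cell carbonic anhydrase Car1, 1 of the lower ones, stood at 8.54 in the KO pool against 9.29 in the wild-type pool. In such bulk pools fewer cells of a type and less RNA per cell cannot be told apart, and the part of these cells in the Bcl2l1 value was not tested.

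The promoters of the genes were searched because the study removed a transcription factor. NRF2 binds the antioxidant response element, whose core was searched as TGACNNNGC, and the STAT motif TTCNNNGAA and the FOXO motif GTAAACA were searched beside it, since cytokine signalling through STAT5 is known to act on Bcl2l1 and FOXO factors on Bcl2l11. RefSeq start sites on GRCm38.p6 were used for 9 of the 10 genes, Bax included, and the 250 bases before each start gave 15 windows. Pmaip1 was left out of this search, so its promoter was not analysed here. On both strands the NRF2 core was found in 1 of the 15 windows, against 10.2% of 32851 such windows over all genes. The STAT motif was found in 0 of 15, against 7.02% of all windows, and the FOXO motif in 2 of 15, against 3.17%. The matches did not overlap each other. A match describes the letters in the window and is not a binding site by itself.

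The 1 window with the NRF2 core belongs to Bcl2l1, and the 3 windows of that gene are shown because it had the lowest difference of the 9 measured genes. Bcl2l1 is annotated on chromosome 2 from 152758732 to 152833803 on the minus strand, so all 3 starts lie inside the annotated gene, and their place in exons or introns was not analysed here. The match begins 127 bases before start 3 and ends 119 bases before it, and it reads as the core on the opposite strand. Capitals mark a motif match, and each sequence runs 5′ to 3′ on the minus strand of GRCm38.p6.
Bcl2l1 start 1, chr2:152831729-152831978: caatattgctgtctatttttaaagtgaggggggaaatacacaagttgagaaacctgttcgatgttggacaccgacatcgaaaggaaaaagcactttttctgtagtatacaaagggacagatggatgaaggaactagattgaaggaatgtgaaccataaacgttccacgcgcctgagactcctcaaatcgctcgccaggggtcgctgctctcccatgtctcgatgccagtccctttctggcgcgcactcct
Bcl2l1 start 2, chr2:152830718-152830967: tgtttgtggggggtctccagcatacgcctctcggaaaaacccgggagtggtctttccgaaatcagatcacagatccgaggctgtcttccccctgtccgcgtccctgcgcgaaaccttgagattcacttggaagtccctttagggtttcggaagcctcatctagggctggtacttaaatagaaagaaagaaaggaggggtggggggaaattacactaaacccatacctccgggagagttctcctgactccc
Bcl2l1 start 3, chr2:152828490-152828739: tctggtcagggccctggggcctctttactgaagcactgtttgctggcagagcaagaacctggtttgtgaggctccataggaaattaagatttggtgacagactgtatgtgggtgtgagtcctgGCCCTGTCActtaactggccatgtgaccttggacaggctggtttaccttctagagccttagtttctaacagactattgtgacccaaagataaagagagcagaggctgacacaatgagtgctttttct
These windows held 47.6%, 53.2% and 48.4% G and C bases for starts 1, 2 and 3, close to the median of 52.4% over all windows.

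The measured effector gene was close to equal in both pools. Bak1, which encodes the pore-forming protein BAK, stood at 9.03 in the KO pool against 8.99 in the wild-type pool, a log2 difference of 0.04. The SD of genes of similar level was 0.29, and 85.1% of genes past the filter were as far from 0 or farther. Its promoter window held none of the 3 motifs.

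The BH3-only genes split, with 2 higher and 2 lower among the 4 that passed the filter, and their median was -0.04. Bad, whose protein neutralises BCL2 and BCL-XL and is held inactive by phosphorylation when growth factors are present, had the highest difference of the 9 measured genes. Its level was 7.62 in the KO pool against 7.17 in the wild-type pool, a log2 difference of 0.45, equal to 137.0% of the wild-type level. Genes of similar level had an SD of 0.34, and 4.70% of genes past the filter were as high or higher. Neither of the 2 promoter windows of Bad held a motif match.

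Bcl2l11 encodes BIM, which binds all the survival proteins and is known to drive the death of blood cells that lose their cytokines. It stood at 8.45 in the KO pool against 8.15 in the wild-type pool, a log2 difference of 0.30, with an SD of 0.33 among genes of similar level. One of the 2 BIM windows with a known start held the FOXO motif, 227 to 221 bases before start 1, and is shown for that match, on the plus strand of GRCm38.p6 with the match in capitals.
Bcl2l11 start 1, chr2:128125788-128126037: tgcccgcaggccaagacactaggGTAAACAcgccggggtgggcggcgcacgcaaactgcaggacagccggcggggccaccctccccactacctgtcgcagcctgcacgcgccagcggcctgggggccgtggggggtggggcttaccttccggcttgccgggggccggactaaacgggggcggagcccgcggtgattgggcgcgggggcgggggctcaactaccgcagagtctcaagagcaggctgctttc
The factor gene Foxo3 stood at 8.75 in the KO pool against 8.61 in the wild-type pool, and Foxo1, named outside the rule, stood at 7.57 and 7.66. A part of FOXO factors in the Bcl2l11 value was not tested. The other window with a FOXO match belongs to Bbc3.

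Pmaip1 encodes NOXA, a p53 target that binds MCL1 and speeds its breakdown. It stood at 6.89 in the KO pool against 7.38 in the wild-type pool, a log2 difference of -0.49, equal to 71.1% of the wild-type level. The SD of genes of similar level was 0.35, and 6.44% of genes past the filter were as low or lower. Bid, whose protein is cut by caspase-8 and carries the death receptor signal to mitochondria, stood at 6.61 in the KO pool against 6.99 in the wild-type pool, a log2 difference of -0.38. Its knockout level lay just above the filter, where signals are weak, and genes of similar level had an SD of 0.39. Bbc3, which encodes PUMA, the other p53-driven BH3-only protein, stood at 5.87 in the KO pool against 5.93 in the wild-type pool, below the filter in both, a difference of -0.06. The neutrophil and monocyte markers given above were lower in the same array as Pmaip1 and Bid, and their part in these values was not tested.

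**Figure D2:**
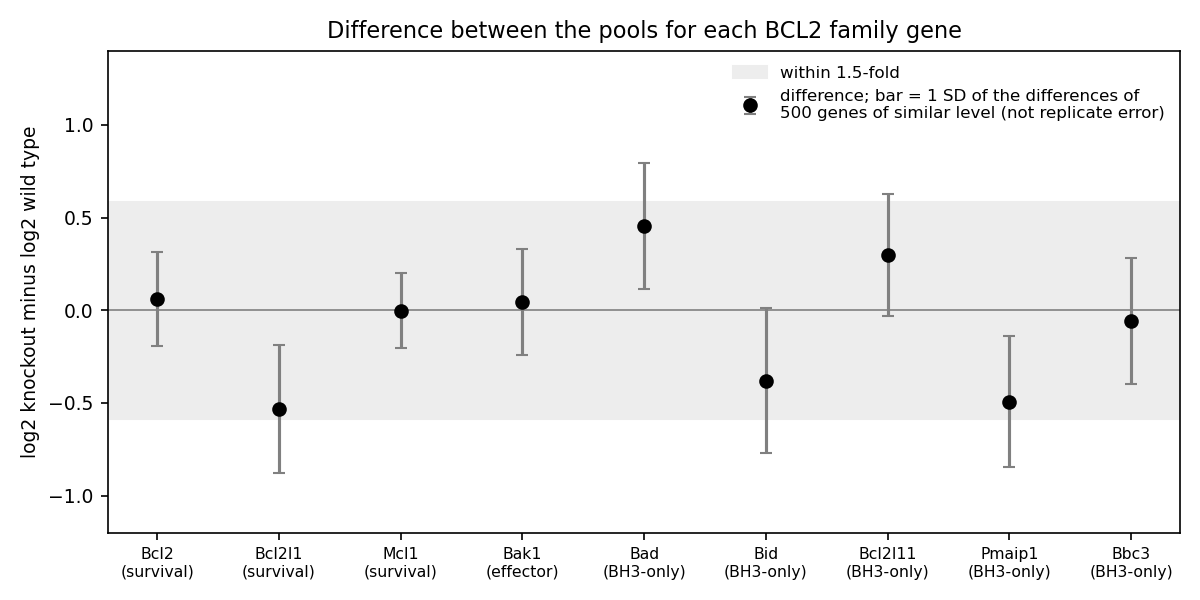
Log2 knockout minus log2 wild type (vertical axis) for the 9 measured genes, with a grey band that marks 1.5-fold. Each bar is 1 SD of the differences of the 500 genes past the filter nearest in level and is not replicate error. Bbc3 lies below the filter, so its bar comes from brighter genes. All 9 points lie inside the band, from -0.54 for Bcl2l1 to 0.45 for Bad.

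Set against all genes, 5 of the 9 stood in the outer parts of the distribution on the side of their difference. Bcl2l1 and Pmaip1 were near the low end, with 5.38% and 6.44% of genes as low or lower, and Bid had 11.1% as low or lower. Bad and Bcl2l11 were on the high side, with 4.70% and 10.6% of genes as high or higher. Counted in both directions, 17.9% of genes were as far from 0 as Bid or farther, and 26.8% as far as Bcl2l11 or farther. The remaining Bcl2, Mcl1, Bak1 and Bbc3 were near the centre, where between 79.8% and 99.1% of genes were as far from 0 or farther. Since 8.34% of all genes were as far from 0 as Bcl2l1 or farther, none of the members is set apart from other genes by its size.

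**Figure D3:**
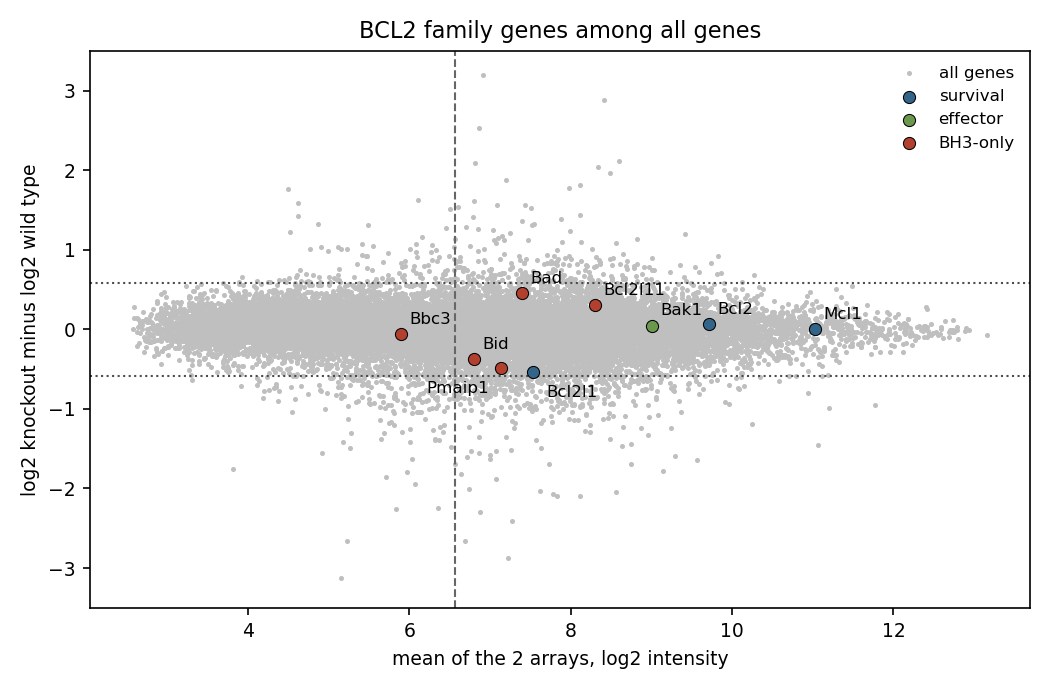
Log2 knockout minus log2 wild type (vertical axis) against the mean log2 intensity of both arrays (horizontal axis) for 19938 genes in grey, with the 9 BCL2 family genes coloured by role. The dotted lines mark 1.5-fold and the dashed line marks the level filter of 6.57; the 9 genes lie within the cloud of other genes.

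The balance of survival over pro-apoptotic genes was described by the change in the log2 ratio of each survival gene to each other member, 18 pairs in all, which share genes and are not independent. A change in a ratio compares 2 differences and not the levels of 2 probe sets. Pairs with Bcl2l1 were lower in the knockout pool in 6 of 6 cases, between -0.99 and -0.04. Pairs with Bcl2 were lower in 2 of 6, between -0.39 and 0.55, and pairs with Mcl1 in 3 of 6, between -0.45 and 0.49. All 6 Bcl2l1 pairs carry the same Bcl2l1 difference, so their shared direction is 1 observation.

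For proteins known to bind each other, the pairs differed by partner. BCL-XL and BAD are a known pair, and the ratio of Bcl2l1 to Bad differed the most between the pools, by -0.99, and was 50.4% of the wild-type ratio. This was 2.04 times the SD of 0.49 obtained by combining the spreads of genes of similar level for both genes. The pair joins the lowest and the highest of the 9 differences, so it is the largest by construction. The ratio of Bcl2l1 to Bcl2l11 differed by -0.83, with an SD of 0.48, and that to Bak1 by -0.58, with an SD of 0.45. The Bcl2 to Bad ratio differed by -0.39 and the Bcl2 to Bcl2l11 ratio by -0.24, both inside 1 SD.

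The pairing of MCL1 with NOXA went the other way. The ratio of Mcl1 to Pmaip1 was 140.5% of the wild-type ratio, a change of 0.49 with an SD of 0.41, and came from the lower Pmaip1 value alone, since Mcl1 stood at 11.03 in both pools. Mcl1 to Bak1, the pair in which MCL1 is known to restrain BAK, differed by -0.05 with an SD of 0.35. Mcl1 to Bcl2l11 differed by -0.30 and Mcl1 to Bid by 0.38, each inside 1 SD. The family's ratios therefore had no common direction. Ratios of Bcl2l1 were lower with every partner, and ratios to Bad and to Bcl2l11 were lower for every survival gene. For Bak1, Bid, Pmaip1 and Bbc3 the sign differed between the survival genes.

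**Figure D4:**
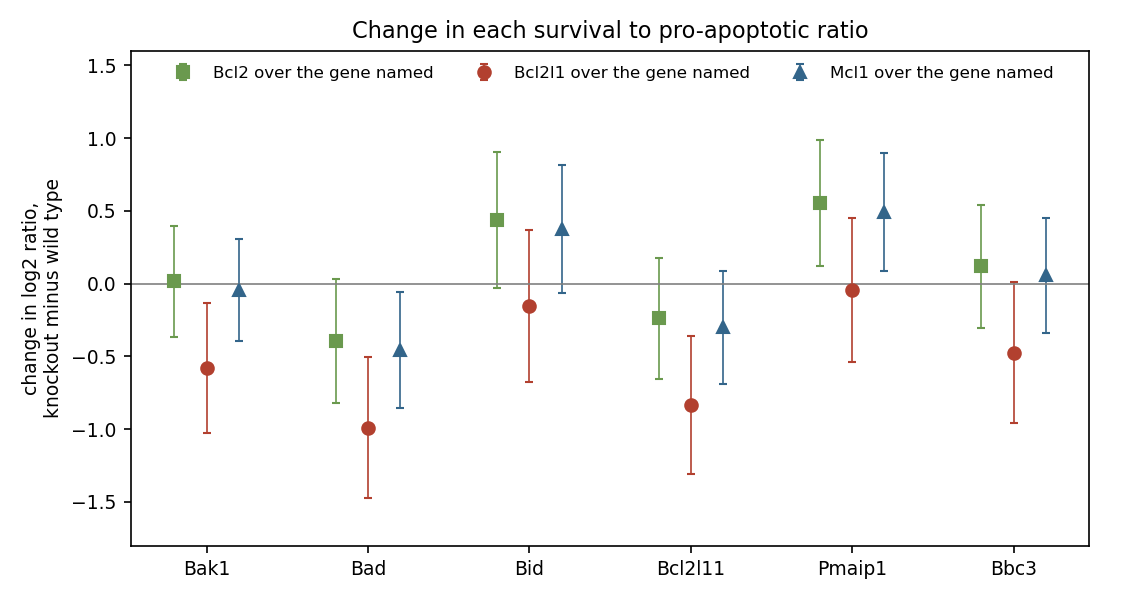
Change in the log2 ratio (vertical axis, knockout minus wild type) of Bcl2 (squares), Bcl2l1 (circles) and Mcl1 (triangles) to each pro-apoptotic gene named on the horizontal axis. Bars are 1 SD, combined from genes past the filter of similar level for both genes, which for Bbc3 are brighter than Bbc3 itself. The circles lie below 0 in 6 of 6 pairs, while squares and triangles lie on both sides.

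Other genes of the family were mostly weak or level. Of 17 further family genes listed, 14 had a value and 6 passed the filter, of which 2 were higher and 4 lower, with a median of -0.18. Bok, a relative of BAX and BAK, stood at 6.92 in the KO pool against 6.83 in the wild-type pool, and the BH3-only gene Hrk stood at 7.71 and 7.63 in the same order. Below the filter were the survival genes Bcl2l2, with a difference of -0.06, and Bcl2l10, with one of 0.09, and the BH3-only genes Bik and Bmf, with -0.06 and 0.13. Bcl2a1c of the A1 survival genes stood at 3.98 in the KO pool against 4.54 in the wild-type pool, near the bottom of the scale; the A1 genes are near-identical copies, so this value is uncertain, and Bcl2a1a, Bcl2a1b and Bcl2a1d were not analysed here.

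The mitophagy receptor Bnip3 was the only one of the 6 at least 1.5-fold apart, at 6.86 in the KO pool against 7.86 in the wild-type pool, a log2 difference of -0.99. Its 2 probe sets disagreed in size, with -1.66 for one, at 6.07 against 7.73, and -0.33 for the other, at 7.65 against 7.98. With the brighter probe set alone Bnip3 was not 1.5-fold apart. Its relative Bnip3l differed by -0.30, with 2 probe sets at -0.32 and -0.27. Bcl2l12 differed by -0.20 and the autophagy gene Becn1, whose protein carries a BH3 domain, by -0.16. Below the filter, Bcl2l13, another mitophagy receptor, was higher by 0.44, and Bcl2l14 and Bcl2l15 had the same value on both arrays, 6.17 and 4.47.

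At the mitochondrial outer membrane, 5 of 9 listed partners were higher and 4 lower, with a median of 0.03. The channel gene Vdac3 was 1.52-fold lower, at 9.81 in the KO pool against 10.41 in the wild-type pool, from 3 probe sets of which 2 had identical values, so they are not separate measurements. Vdac2, whose protein is known to hold BAK at the membrane, was named outside the rule and differed by -0.04. The import receptor gene Tomm22 differed by -0.49 and the hexokinase gene Hk2 by 0.22. Past the pore, of 10 genes for released proteins, the apoptosome and its inhibitors, 4 were higher and 6 lower, with a median of -0.01 and none at least 1.5-fold apart. Apaf1, the scaffold of the apoptosome, was higher by 0.31, and its downstream inhibitor Xiap by 0.23, while the inhibitor gene Birc5 differed by -0.16 and cytochrome c, Cycs, named outside the rule, by -0.02.

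Upstream of the BH3-only genes, 4 of 9 transcription factor genes past the filter were higher and 5 lower, with a median of -0.08. Jun differed by -0.28, Foxo3 by 0.15 and Runx3 by 0.13. A further list held 16 genes past the filter, for kinases that act on BAD or BIM and for 14-3-3 proteins, which hold phosphorylated BAD. Of these, 8 were higher and 8 lower, with a median of -0.00. The 8 lower ones were all kinase genes, while the 14-3-3 genes past the filter were all higher, from 0.03 to 0.32. These 14-3-3 differences lay inside the SD of 0.33 over all genes past the filter. Among the kinase genes, only Mapk9 and Gsk3a were higher. The survival kinase gene Akt1, which acts on BAD, was 1.56-fold lower, at 8.02 in the KO pool against 8.67 in the wild-type pool. The JNK2 gene Mapk9 was higher by 0.48, and the kinase gene Gsk3b, which marks MCL1 for breakdown, differed by -0.37. Its relative Gsk3a, named outside the rule, went the other way, by 0.33.

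Cytokine receptor and signalling genes of the survival input were higher in 10 of 11 cases past the filter, with a median of 0.13, against 46.5% of all genes above 0. The shared beta chain gene Csf2rb stood at 8.27 in the KO pool against 7.69 in the wild-type pool, a log2 difference of 0.58. Il6st, the gp130 receptor chain, was higher by 0.42, and the interleukin-3 receptor gene Il3ra by 0.32. None of the 11 reached 1.5-fold, and Kit and Flt3 among them are also KSL markers. In the same comparison 12 of 14 neutrophil and 9 of 10 monocyte and macrophage markers were lower, and their part in this count was not tested. Over all pathway lists without marker genes, 2 of the 74 that passed the filter were lower by 1.5-fold or more and 0 were higher by as much, against 4.30% and 2.34% of all genes, and counts this small cannot be told from that background.

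**Figure D5:**
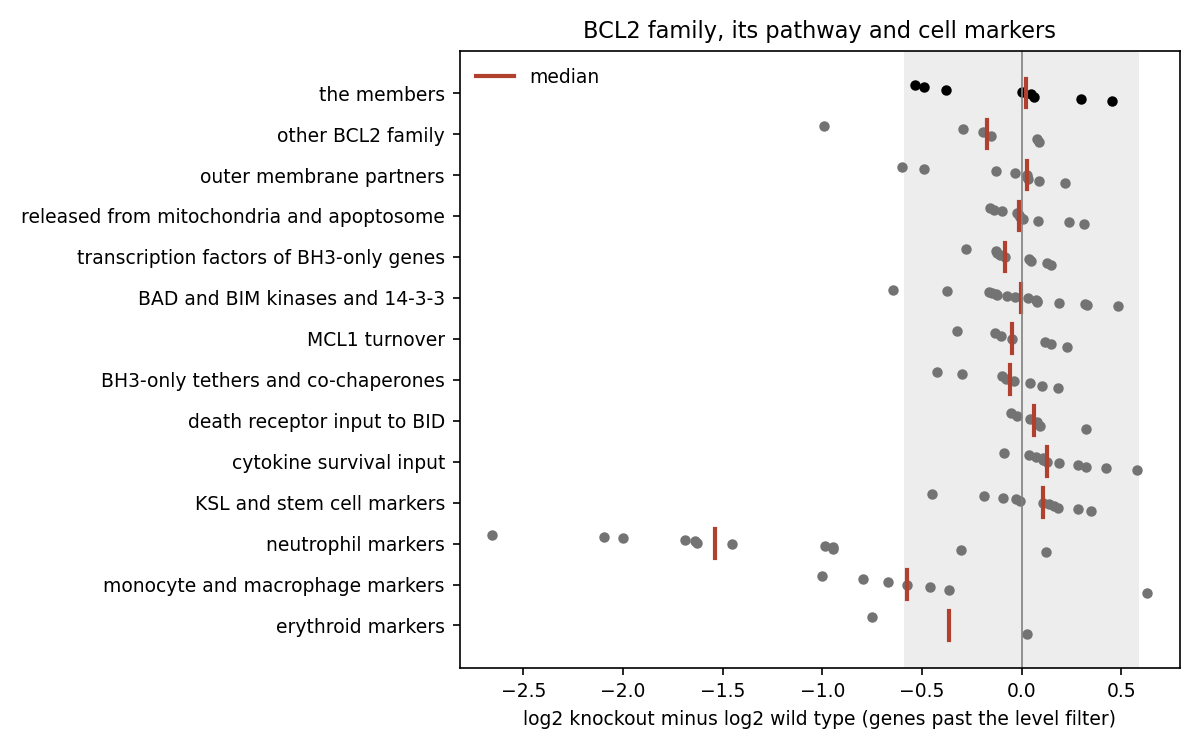
Log2 knockout minus log2 wild type (horizontal axis) of genes past the level filter, 1 point per gene, for the BCL2 members, other family genes, pathway lists and some marker lists. The marker lists drawn are KSL and stem cell, neutrophil, monocyte and macrophage, and erythroid. B lineage, T and NK, and megakaryocyte markers are not drawn. Red lines are medians and the grey band marks 1.5-fold. The 8 members and most pathway genes lie inside the band, while most neutrophil markers lie to its left; their median is -1.22 over all 14 measured, and 3 of the 12 shown passed the filter only through the wild-type array.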

How the data were processed

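Total RNA of 2 pools of KSL cells came from an RNeasy micro kit, and NuGEN Ovation kits served to amplify and label it for 1 array each, per the labels' protocols. The submitters' processing notes name Partek, without a version or role; how background, normalization and probe summary were handled is not given in the sources used here. In the deposited table values are log2 intensities; the log base was taken from the values, which reach 13.8. Their sorted values differ by at most 0.0866 between arrays, so a shift of all genes 1 way could not be seen. Amplification from few cells may distort differences of single genes.

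Of 28853 probe sets, 21789 had 1 symbol in the platform annotation, 1621 had several and 5443 had none. Probe sets of a gene were averaged, and the Entrez IDs of the 9 measured members matched GRCm38.p6 RefSeq. Differences were taken from the deposited values without further scaling. Arrays have no read depth, and their number limits the precision. Genes were named by a rule: all members, all other BCL2 family genes measured, Nfe2l2, and in each other list the genes at least 1.5-fold apart or up to 3 with the largest absolute difference. Some smaller marker differences that it takes are left out; genes outside it are said to be so or are cell markers. The members and lists were chosen with earlier results of these data known. Promoter sequences are from RefSeq, GRCm38.p6. The alternatives were median centring, quantile normalization, loess (span 0.3), 2 other level filters, the brightest probe set, a 2-fold size and means. The computation was run on simulated data with planted differences, which checks the arithmetic and not how reliable a single difference is. Computation used Python 3.11.15, numpy 2.4.6, pandas 2.3.3 and statsmodels 0.14.6.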

Additional observations from a re-analysis of the deposited data

How the results depend on the processing

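Of 177 recomputed values, 166 stayed within the probe-set SD divided by the square root of the number of genes summarised or, for counts, within 1.5 times the main count, 11 moved further and 0 of the values at least 1.5-fold apart turned sign. Over all results 21 values had another sign, mostly near 0; among them the erythroid median was 0.03 without a level filter, the monocyte and macrophage median was 0.03 over the 2 genes left at the 75th percentile filter, and the median of the 9 members without a level filter was -0.00. Scaling moved the members little: Bcl2l1 ran between -0.54 and -0.51, Bad between 0.45 and 0.48, Pmaip1 between -0.49 and -0.47, Bid between -0.38 and -0.36, and Bcl2l11 between 0.30 and 0.33. The sorted values of the arrays already differed by at most 0.0866, so median centring and quantile normalization had little room to move them. These small shifts say nothing about replicate error. Of 36 member values, 3 had another sign, all for Mcl1: 0.02 with median centring, 0.03 with quantile normalization and 0.01 with loess. The 36 include those with the brightest probe set, which equal the main values because each member has 1 probe set. The count of members at least 1.5-fold apart was 0 with median centring, quantile normalization, loess and no level filter. A 2-fold size, a stricter level filter and the brightest probe set could not raise this count. With the level filter at the 75th percentile, 8.07, the BH3-only median was 0.30, because only Bcl2l11 was left, the count of other family genes apart was 0 and that of pathway and marker genes was 11, against 21, since fewer genes were counted. With the brightest probe set the count of other family genes apart was 0, against 1, because the brighter Bnip3 probe set differs by -0.33. Under the same setting the count of pathway and marker genes apart was 22, against 21. No paired analysis was possible because each genotype had 1 array, and no replicate could be left out. A weak signal limits Bid and Bbc3 most.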

Other observations

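Regulators of MCL1 turnover, of BH3-only tethering and of death receptor signalling were close to level. Of 7 genes of MCL1 turnover past the filter, 3 were higher and 4 lower, with a median of -0.05. The mitochondrial ubiquitin ligase gene Marchf5 stood at 9.47 in the KO pool against 9.79 in the wild-type pool, while the ubiquitin ligase genes Fbxw7 and Huwe1, whose proteins act on MCL1, were higher by 0.23 and 0.15. Of 8 tether and co-chaperone genes, 3 were higher and 5 lower, with a median of -0.06. The co-chaperone genes Bag5, Bag3 and Bag6 differed by -0.42, -0.30 and 0.18. Of 6 genes that feed death receptor signals to BID, 4 were higher and 2 lower, with a median of 0.06. The adaptor gene Tradd stood at 7.20 in the KO pool against 6.88 in the wild-type pool, the caspase-8 inhibitor gene Cflar was higher by 0.09, and the TNF receptor gene Tnfrsf1a by 0.08.

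Cell markers past the filter differed by cell type. KSL and stem cell markers had a median of 0.10 over 11 genes, with Mecom at -0.45, Meis1 at 0.35 and Kit at 0.28. The 2 probe sets of Mecom differed by -0.59 and -0.30. Slamf1, below the filter, stood at 6.43 in the KO pool against 5.73 in the wild-type pool, and the median over all 12 measured was 0.12. Neutrophil markers had a median of -1.22 over all 14 measured. Over the 12 past the filter it was -1.54, but Retnlg, Mmp8 and Cxcr2 passed only through the wild-type array, with 5.36, 5.74 and 6.19 in the KO pool against 8.01, 7.75 and 7.81 in the wild-type pool. Lcn2 differed by -2.10, Ltf by -1.69, Camp by -1.64, S100a8 by -1.45, Ngp by -0.99, and S100a9 and Itgam by -0.95 each. Monocyte and macrophage markers had a median of -0.57 over 7 genes, and one of -0.64 over all 10 measured, with Fn1 at -0.80, Csf1r at -0.67, Cd68 at 0.63, and Ms4a6c at 7.28 in the KO pool against 8.29 in the wild-type pool. Of these, Fn1 passed only through the wild-type array, at 6.41 in the KO pool against 7.21 in the wild-type pool. B lineage markers had a median of -0.20 over 3 genes, with Cd79b at -0.79, and one of -0.16 over all 7 measured. Igll1, 1 of the 3, passed only through the wild-type array, at 6.47 in the KO pool against 6.67 in the wild-type pool. T and NK markers had a median of -0.11 over 3 genes, with Nkg7 at -0.48. Erythroid markers had a median of -0.36 over the 2 genes past the filter, Car1 at -0.75 and Car2 at 0.03, and one of 0.03 over all 5 measured, and megakaryocyte markers one of 0.13 over 5 genes, with Pf4 at 0.79, Vwf at 0.63 and Gp5 at -0.90.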
